A study of Mus musculus with 9 samples.

Results

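The 10 genes of interest encode receptors and bridging molecules of phosphatidylserine, here followed in mouse primary macrophages under 3 oxygen conditions: Mertk, Axl, Tyro3, Gas6, Pros1, Mfge8, Timd4, Stab1, Itgav and Itgb3. They were chosen by name, and each was found by its Ensembl identifier among the 34866 genes listed, so all 10 members are accounted for. RNA sequencing had been carried out on 9 libraries in 3 groups of 3 biological replicates. All cells grew in alpha-MEM containing serum and L929-conditioned medium, a source of the macrophage growth factor CSF1. The standard oxygen group had 7 days of standard oxygen. Cells of the acute hypoxia group had 1% oxygen for only 3 hours after standard oxygen, and those of the chronic hypoxia group had it for all 7 days. Strain, sex, age and the tissue that gave the cells are not stated in the labels used here, and no gene was altered in any group.

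Phosphatidylserine is a lipid of the inner leaflet of the plasma membrane that dying cells turn outward, where macrophages read it as a signal for uptake, a process called efferocytosis. Some receptors bind the lipid directly, as do TIM-4 (the product of Timd4) and stabilin-1 (Stab1). Others bind it through a soluble bridge: GAS6 and protein S (Pros1) link it to the TAM receptor tyrosine kinases TYRO3, AXL and MERTK, and MFG-E8 (Mfge8) links it to integrins of the alpha-v subunit (Itgav) paired with beta-3 (Itgb3) or beta-5.

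Expression is given in TPM, a length-corrected share of a library that allows levels of different genes to be compared. Sequencing depth is unknown because TPM keeps no record of it. Each sample description carries 4 digits, and each digit set occurs once in every group. The sets are called X, Y and Z here, and the meaning of the digits is not stated. The 3 libraries of set Z stood apart. Over 7107 genes with a mean of at least 10 TPM, the median absolute log2 difference between libraries of a group was 0.107 to 0.122 for X against Y and 0.211 to 0.278 where Z was involved. The 10 macrophage markers summed to 56900 to 75100 TPM in every library, and 9 or 10 of them reached 1 TPM. Nearly all of the sum was Lyz2 (52800 to 70400 TPM), so it hides differences of the other markers between the sets. Among those lower in set Z than in sets X and Y were Mrc1 (means of 0.399 and 12.6 TPM), Adgre1 (405 and 540) and Cd68 (1070 and 1330). Spi1 (268 and 217 TPM), Itgam, Fcgr1 and Cd14 had the higher mean in set Z. In the fit of set Z against the other sets described below, Spi1 passed (limma adjusted p = 0.0056). Itgam, Fcgr1 and Cd14 did not (limma adjusted p = 0.197, 0.246 and 0.47). In acute hypoxia Fcgr1 and Cd14 were lower in set Z than in sets X and Y. Markers of fibroblasts (at most 0.327 TPM summed), T cells (1.95), B cells (0.675), mast cells (0.786), dendritic cells (0.579) and endothelial cells (0.895) were near 0 in all libraries.

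Of the members, 7 reached the minimum for testing, a mean of 1 TPM over the libraries compared, and 3 did not. In standard oxygen the mean levels ran from 42.2 ± 26.9 TPM for Mfge8 through 27.8 ± 3.27 for Stab1, 26.9 ± 3.09 for Itgav, 19 ± 13.5 for Mertk and 15.9 ± 13.7 for Gas6 to 3.86 ± 0.34 for Pros1 and 2.51 ± 1.85 for Itgb3 (SD, n = 3). Neighbours among the first 5 of that order did not differ beyond their spread, nor did Pros1 and Itgb3. Axl, Tyro3 and Timd4 stayed below a mean of 1 TPM in every comparison and were left out of the tests. MERTK was therefore the only TAM receptor with an RNA level above 0.369 TPM in any library.

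**Figure D1:**
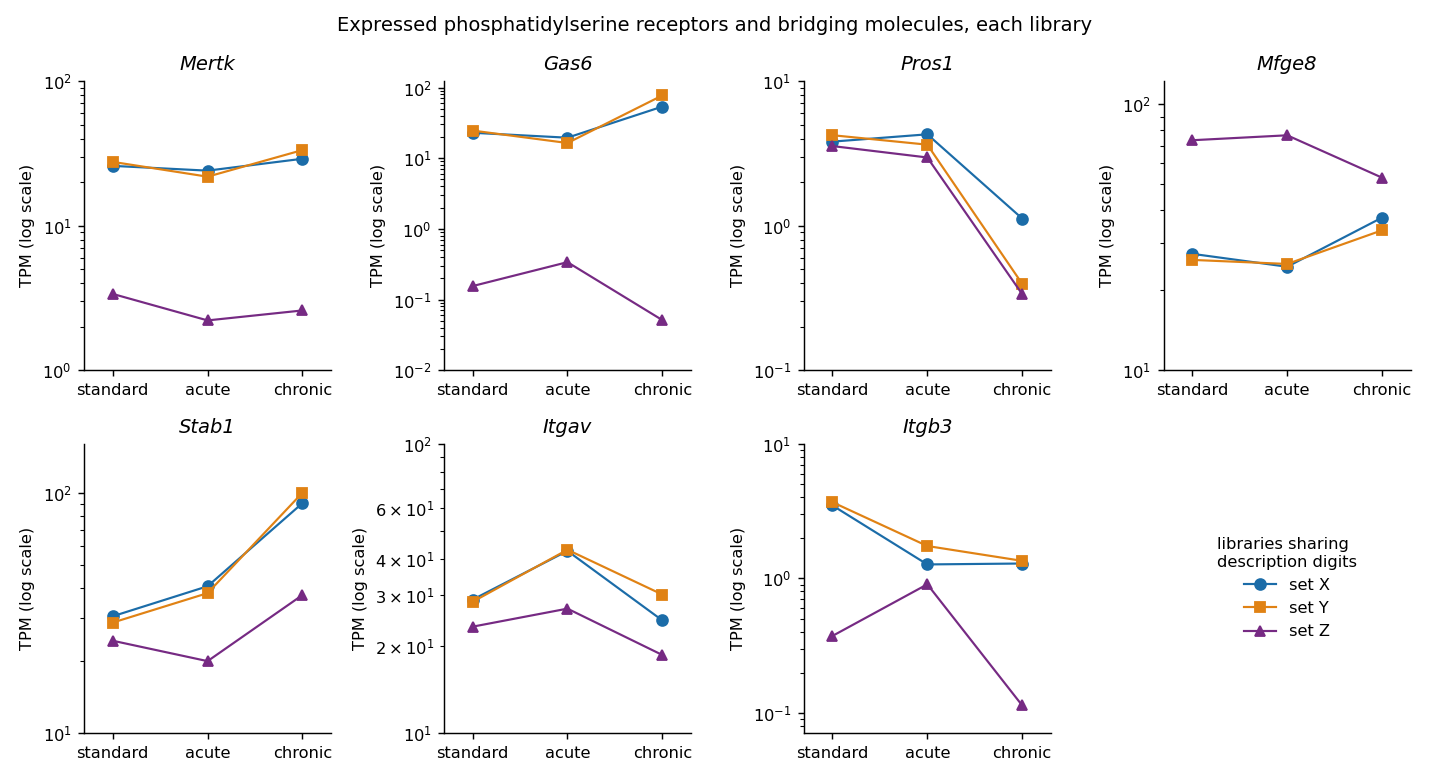
TPM (log axis) of the 7 tested members in each library, by oxygen group on the x axis, with the libraries of 1 digit set joined by a line. Mertk and Gas6 of set Z lie far below the other sets, Mfge8 of set Z lies above them, Pros1 drops in chronic hypoxia in all 3 sets, and Stab1 is highest in chronic hypoxia in all 3 sets.

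The abundance of Mertk, the TAM receptor most associated with efferocytosis by macrophages, differed strongly between the digit sets. That difference was known when the genes were chosen and is a description only. In sets X, Y and Z Mertk was 25.9, 27.6 and 3.37 TPM under standard oxygen, 24, 21.8 and 2.21 TPM in acute hypoxia, and 29, 33.3 and 2.59 TPM in chronic hypoxia. Every set Z library was below every library of sets X and Y, and the 3 oxygen groups overlapped. The gene lies at chr2:128698956-128802894 on the plus strand of GRCm38. Acute hypoxia and standard oxygen differed by a log2 fold change of -0.29 on the log2(TPM + 1) scale (95% confidence interval -2.77 to 2.18, limma adjusted p = 1). Within the sets the difference was -0.1, -0.33 and -0.45, lower in 3 of 3, and a fit with the digit set as a block narrowed the interval to -0.56 to -0.02 (limma adjusted p = 0.324). Chronic hypoxia differed from standard oxygen by 0.05 (blocked interval -0.3 to 0.39, limma adjusted p = 0.827), a value that turned to -0.12 after median-of-ratios rescaling. Chronic exceeded acute hypoxia within every set, by 0.26, 0.59 and 0.16, with a blocked interval of 0.04 to 0.64 and a limma adjusted p of 0.111. No oxygen comparison of Mertk passed the test in either fit.

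Axl and Tyro3 were at or close to 0. Axl (chr7:25757273-25788705, minus strand) was listed at 0 in 5 libraries and reached 0.221 TPM at most, in the standard oxygen library of set Y. Tyro3 (chr2:119797733-119818104, plus strand) was listed at 0 in 2 libraries, both in chronic hypoxia, and reached 0.369 TPM at most, in the acute library of set X. With every gene above 0 included, limma adjusted p-values over the 3 comparisons were 0.506 to 0.963 for Axl and 0.286 to 0.959 for Tyro3.

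Pros1, which encodes protein S, a plasma anticoagulant that also bridges to MERTK and TYRO3, was lower in chronic hypoxia. In sets X, Y and Z it was 3.81, 4.22 and 3.55 TPM under standard oxygen, and acute hypoxia gave 4.28, 3.63 and 2.96 TPM. In chronic hypoxia it was 1.12, 0.396 and 0.336 TPM. All 3 chronic libraries were below all 6 others. The TPM in chronic hypoxia was 0.295, 0.0939 and 0.0948 times that in standard oxygen within sets X, Y and Z. The log2 fold change against standard oxygen was -1.62 ± 0.245 (SE, n = 3 per group, limma adjusted p = 0.034), and with the digit-set block it was -1.62 ± 0.217 (limma adjusted p = 0.0169). Pros1 averaged 0.619 TPM in chronic hypoxia and passed the minimum of 1 TPM only through the other group. The call was lost with the title number as a block (limma adjusted p = 0.165), with no filter on low values (0.0619), and in the blocked fit without set X (0.0518) or without set Y (0.106). It also failed in 4 of the 6 fits that left out 1 library: without standard oxygen replicate 1 or 3 and without chronic hypoxia replicate 1 or 2. Against acute hypoxia the fold change was -1.54 ± 0.26 (limma adjusted p = 0.0602) and passed with the block (-1.54 ± 0.192, limma adjusted p = 0.0138), but not in the blocked fit without set X (0.092). Acute hypoxia and standard oxygen differed by -0.08 (blocked interval -0.43 to 0.27), with set X higher and sets Y and Z lower.

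The promoter of Pros1 is shown because this was the only member to pass the unblocked test of an oxygen comparison. The gene lies at chr16:62854307-62929346 on the plus strand. The 250 bases before its RefSeq start (GRCm38.p6, chr16:62854057-62854306, plus strand) have 64.4% GC, against a median of 52.4% over all 32851 promoter windows of this length.
Pros1: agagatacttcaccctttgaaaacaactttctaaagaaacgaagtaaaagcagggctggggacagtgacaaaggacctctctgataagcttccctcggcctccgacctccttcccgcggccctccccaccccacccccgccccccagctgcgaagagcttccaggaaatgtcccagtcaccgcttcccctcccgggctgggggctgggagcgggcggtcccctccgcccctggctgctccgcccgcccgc
The core letters of a hypoxia response element, ACGTG or GCGTG on either strand (CACGT or CACGC on the other), do not occur in this window. They occur in 38.6% of all such windows and in 2 of the 9 member windows found in RefSeq, those of Tyro3 and Mfge8. A match describes letters only and is not a binding site.

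Gas6, the ligand of all 3 TAM receptors, was abundant in sets X and Y and almost unlisted in set Z. In sets X, Y and Z it was 22.9, 24.6 and 0.155 TPM under standard oxygen, 19.5, 16.4 and 0.338 TPM in acute hypoxia, and 53.7, 77.2 and 0.0512 TPM in chronic hypoxia. Within sets X and Y the chronic libraries were the highest, at 2.34 and 3.14 times the standard oxygen level, while the 3 values of set Z were all below 1 TPM. Over all libraries chronic hypoxia and standard oxygen differed by a log2 fold change of 0.89, with an interval of -3.74 to 5.52 without a block and of -0.02 to 1.8 with it (limma adjusted p = 0.819 and 0.136). Against acute hypoxia it was 1.08 (0.783 and 0.166). In the 4 libraries of sets X and Y alone Gas6 rose in chronic hypoxia against standard oxygen, by 1.4 ± 0.182 (SE, n = 2 per group, limma adjusted p = 0.0102), and against acute hypoxia, by 1.79 ± 0.194 (limma adjusted p = 0.00831). After rescaling these values were 1.22 and 1.64 and still passed (limma adjusted p = 0.0117 and 0.0124). The gene lies at chr8:13465374-13494490 on the minus strand, and 1.33% of its exon bases are shared with Tmem255b.

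Mfge8, whose product joins phosphatidylserine to alpha-v integrins, ran opposite to Mertk and Gas6 across the sets. In sets X, Y and Z it was 27.4, 26 and 73.3 TPM under standard oxygen, 24.5, 25.1 and 76.5 TPM in acute hypoxia, and 37.5, 33.6 and 53 TPM in chronic hypoxia. Set Z was highest in each group, and the distance between the sets was smallest in chronic hypoxia because sets X and Y were higher there and set Z lower. The group means were 42.2 ± 26.9, 42 ± 29.8 and 41.4 ± 10.2 TPM (SD, n = 3). No oxygen comparison passed: chronic hypoxia differed from standard oxygen by 0.11 (blocked interval -0.4 to 0.62, limma adjusted p = 0.703), which became -0.06 after rescaling. Without set Z the difference was 0.4 ± 0.0936 (SE, n = 2 per group, limma adjusted p = 0.0434), and it missed the threshold after rescaling (0.22, limma adjusted p = 0.233).

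The promoter of Mfge8 is shown as the 1 expressed member whose window holds a core motif, marked in capitals. The gene lies at chr7:79133768-79149060 on the minus strand, and the window is chr7:79149061-79149310 (RefSeq, GRCm38.p6, minus strand, 65.2% GC).
Mfge8: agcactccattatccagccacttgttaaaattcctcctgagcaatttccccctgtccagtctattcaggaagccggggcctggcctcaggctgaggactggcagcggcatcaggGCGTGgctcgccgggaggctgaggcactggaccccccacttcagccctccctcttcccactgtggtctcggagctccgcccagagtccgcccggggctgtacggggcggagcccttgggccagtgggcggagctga

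Itgav, the alpha-v integrin chain that receives MFG-E8, was lower in chronic than in acute hypoxia. In sets X, Y and Z it was 28.9, 28.4 and 23.3 TPM under standard oxygen, 42.6, 43 and 26.9 TPM in acute hypoxia, and 24.5, 30.1 and 18.6 TPM in chronic hypoxia. Acute hypoxia gave the highest library of each set, and set Z was the lowest of each group. Acute hypoxia overlapped the other groups through its set Z library. Chronic hypoxia and standard oxygen also overlapped among the libraries of sets X and Y alone. Between chronic and acute hypoxia the log2 fold change was -0.59 ± 0.242 without a block (SE, limma adjusted p = 0.231) and -0.59 ± 0.0928 with it (limma adjusted p = 0.0199). The blocked call was lost without set X (-0.505, limma adjusted p = 0.119) and without set Y (-0.643, limma adjusted p = 0.0514). Acute hypoxia exceeded standard oxygen within every set, by 0.55, 0.58 and 0.2, without passing over all libraries (0.44, limma adjusted p = 0.76, or 0.181 with the block). In sets X and Y alone Itgav rose by 0.56 ± 0.0699 (SE, n = 2 per group, limma adjusted p = 0.0283). Chronic hypoxia and standard oxygen differed by -0.15 (blocked interval -0.42 to 0.12). The gene lies at chr2:83724397-83806916 on the plus strand.

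Itgb3, the beta-3 chain that pairs with alpha-v, was low everywhere. In sets X, Y and Z it was 3.48, 3.68 and 0.374 TPM under standard oxygen, 1.27, 1.74 and 0.904 TPM in acute hypoxia, and 1.29, 1.35 and 0.114 TPM in chronic hypoxia. Chronic hypoxia was below standard oxygen within each set, at 0.37, 0.366 and 0.304 times its level, but the groups overlapped through set Z. The log2 fold change was -0.76 (blocked interval -1.36 to -0.16, limma adjusted p = 0.465 without and 0.0822 with the block). In sets X and Y alone Itgb3 fell by 0.98 on the log2 scale (SE 0.163, n = 2 per group, limma adjusted p = 0.0187). Acute hypoxia was already at 0.364 and 0.473 times standard oxygen in sets X and Y, and at 2.42 times in set Z. Over all libraries it did not pass (limma adjusted p = 0.613 with the block). Itgb3 lies at chr11:104608000-104670476 on the plus strand.

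Stab1, which encodes stabilin-1, a scavenger receptor that binds phosphatidylserine directly, was highest in chronic hypoxia in every set. In sets X, Y and Z it was 30.6, 28.8 and 24.2 TPM under standard oxygen, 40.8, 38.2 and 19.9 TPM in acute hypoxia, and 90.5, 100 and 37.5 TPM in chronic hypoxia. All 3 chronic libraries exceeded all 3 standard oxygen libraries, while the chronic library of set Z was below 2 of the acute ones. Chronic TPM was 2.96, 3.49 and 1.55 times standard oxygen within sets X, Y and Z. The log2 fold change was 1.31 ± 0.363 without a block (SE, limma adjusted p = 0.11) and 1.31 ± 0.237 with it (limma adjusted p = 0.0279). With rescaling as well it was 1.13 (limma adjusted p = 0.0477). The blocked call was lost without set X (1.19, limma adjusted p = 0.0966) or set Y (1.074, limma adjusted p = 0.123). Against acute hypoxia the fold change was 1.13 ± 0.434 (limma adjusted p = 0.215), and with the block 1.13 ± 0.111 (limma adjusted p = 0.0108), lost without set X (limma adjusted p = 0.0719). In sets X and Y alone Stab1 rose by 1.65 ± 0.0886 against standard oxygen (SE, n = 2 per group, limma adjusted p = 0.00158). Acute hypoxia and standard oxygen differed by 0.18 (blocked interval -0.23 to 0.59).

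The promoter of Stab1 is shown as that of the member that rose in chronic hypoxia in the blocked fit. Stab1 lies at chr14:31139013-31168641 on the minus strand, with 1.09% of its exon bases shared with Nt5dc2, and the window is chr14:31168642-31168891 (RefSeq, GRCm38.p6, minus strand, 57.2% GC). The same core letters do not occur in it.
Stab1: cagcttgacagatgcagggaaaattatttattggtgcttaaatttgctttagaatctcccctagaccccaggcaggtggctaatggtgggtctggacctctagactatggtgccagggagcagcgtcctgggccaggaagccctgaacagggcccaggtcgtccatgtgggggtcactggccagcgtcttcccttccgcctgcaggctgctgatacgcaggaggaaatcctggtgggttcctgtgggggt

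Timd4, the gene for TIM-4 of resident macrophages (chr11:46810800-46844332, plus strand), was listed at 0 in all 9 libraries and received no test.

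Across the 3 comparisons, few members passed. For acute hypoxia against standard oxygen no member of 7 was called without a block (0.0273% of all 10987 genes were, 785 genes having an unadjusted p under 0.05) or with the digit-set block (0.71% of genes, 1555 unadjusted). For chronic hypoxia against standard oxygen Pros1 alone was called without a block, against 2.69% of 11067 genes. With the block 1 member rose, Stab1, where 15.1% of genes rose, and 1 fell, Pros1, where 3.3% of genes fell. For chronic against acute hypoxia no member was called without a block, against 0.695% of 11087 genes, of which 2305 had an unadjusted p under 0.05. With the block Stab1 rose, as did 12.1% of genes, and Pros1 and Itgav fell, as did 3.42% of genes. The median fold change of the 7 tested members was -0.08, 0.05 and 0.16 in the 3 comparisons, beside 0.011, 0.162 and 0.143 over all genes tested. Pros1 passed the minimum of 1 TPM only through the other group (mean of 0.619 TPM in chronic hypoxia), so its place in these counts supports nothing. The comparisons with chronic hypoxia share its libraries and are not independent.

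All values are shares of a library. Rescaling by the median of ratios took the median of all genes to -0.002 for chronic hypoxia against standard oxygen and to 0 against acute hypoxia. It moved the higher share of the blocked calls from 82.1% to 48.3% and from 78% to 48.3%, and that of the unblocked calls from 77.9% to 49.4% and from 79.2% to 40.7%. The members called with the block were the same 2 and the same 3 after rescaling. The groups did not overlap for Pros1 and Stab1 between chronic hypoxia and standard oxygen, as for 29.6% of genes, and for Pros1 between chronic and acute hypoxia, as for 27.8%. Pros1 passed the minimum only through the other group here as well, so its place among these genes supports nothing. No tested member separated acute hypoxia from standard oxygen, against 12.5% of genes.

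Without set Z, 5 of 7 members were called in each chronic comparison. Gas6, Mfge8 and Stab1 rose in both, where 17% of genes rose against standard oxygen and 12.8% against acute hypoxia. Pros1 fell in both, with Itgb3 in the first and Itgav in the second, where 4.07% and 3.48% of genes fell. Mfge8 was lost from both after rescaling. Between acute hypoxia and standard oxygen Itgav was the only member called, where 2.07% of genes rose and 0.877% fell. Pros1 again passed the minimum of 1 TPM only through the other group, so its place in these counts supports nothing. These fits rest on 2 libraries a group.

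**Figure D2:**
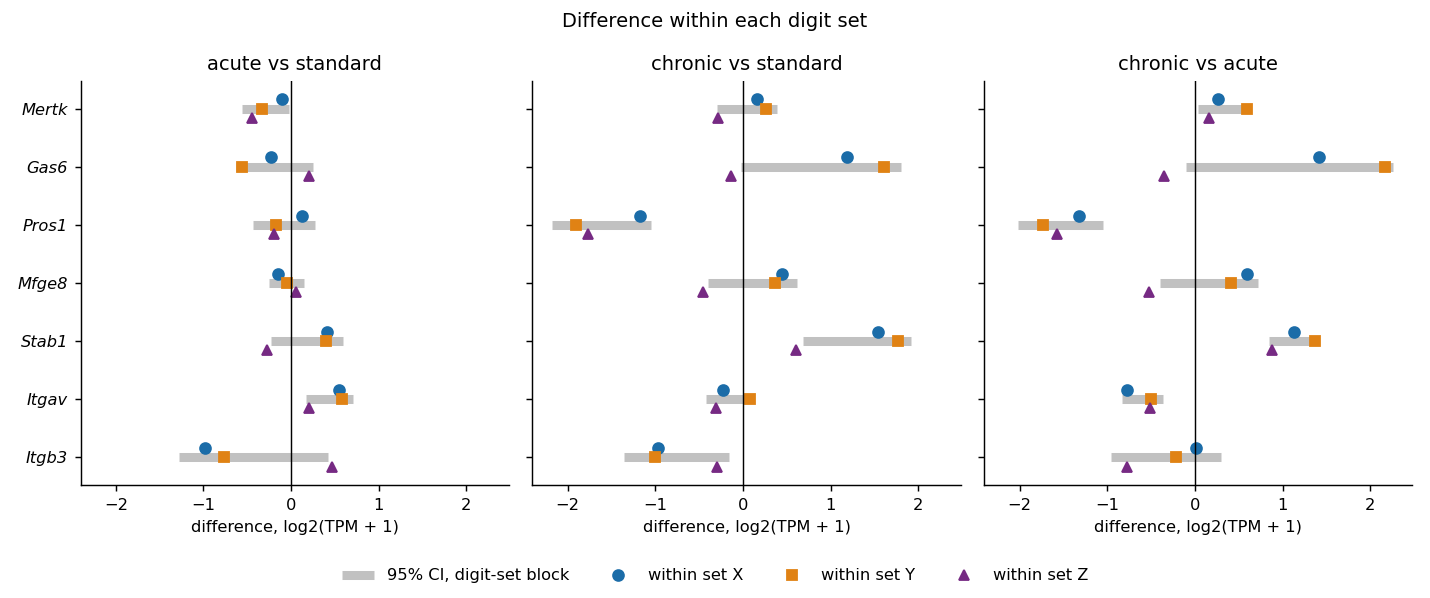
Log2(TPM + 1) difference of each tested member within digit sets X, Y and Z (points), beside the 95% confidence interval of the fit with the digit set as a block (bars), for the 3 comparisons. Pros1 is below 0 in all sets in both chronic comparisons, Stab1 is above 0 in them, and the Gas6 points of sets X and Y (1.19 and 1.61 against standard oxygen) stand apart from set Z (-0.14).

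The levels of several tested members differed between the digit sets. Mertk was 21.8 to 33.3 TPM in sets X and Y and 2.21 to 3.37 TPM in set Z. That difference was already known when the genes were chosen, so no test result is given. With oxygen group as a term over all 9 libraries, 4 of the other 6 tested members were lower in set Z and 1 was higher, where 8.11% of 11065 genes were lower and 24.5% higher. Gas6 was lower by the most (16.4 to 77.2 TPM against 0.0512 to 0.338, log2 difference -4.73 ± 0.359 SE, limma adjusted p = 2.42e-04). Itgb3 (-1.06, limma adjusted p = 0.0174), Stab1 (-0.85, 0.0107) and Itgav (-0.49, 0.00756) were also lower. Mfge8 was higher (24.5 to 37.5 TPM against 53 to 76.5, log2 difference 1.19 ± 0.177 SE, limma adjusted p = 0.00338). Gas6 and Itgb3 passed the minimum of 1 TPM only through sets X and Y, where they are high (means of 0.181 and 0.464 TPM in set Z), so their place in that count supports nothing. That leaves Stab1 and Itgav as lower and Mfge8 as higher. Pros1 was not called (-0.28 ± 0.151 SE, limma adjusted p = 0.2). All 6 kept their side of the threshold and their direction after rescaling, which moved the median of all genes from 0.139 to 0 and the calls from 2716 higher and 897 lower to 1349 and 1657. The 3 libraries of a set may share a source, so these p-values compare 1 set with the other two and not conditions.

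Other pathway genes and cell type markers moved with the sets. The complement chains C1qa, C1qb and C1qc, which tag dying cells, were lower in set Z by log2 differences of -5.44, -4.57 and -5.01 (limma adjusted p = 4.34e-05, 9.57e-06 and 9.23e-06). So were the macrophage transcription factor gene Maf (-1.57) and Cd36, a scavenger receptor (-1.3). Socs3, an inhibitor of cytokine signalling, was higher (2.04, limma adjusted p = 1.41e-04). The 4 monocyte markers summed to 198 to 978 TPM in set Z and to 43.2 to 80.6 TPM in sets X and Y, nearly all of it Ly6c2, while Plac8 was below 1 TPM in every library. The 4 osteoclast markers summed to 35.3 to 52.9 and 8.44 to 13.8 TPM, mostly Ctsk, with Calcr at 0. The neutrophil list summed to 585 to 1910 and 260 to 1030 TPM, nearly all S100a8. S100a9 was at 0 in 8 libraries, and Ly6g, Elane and Mpo stayed below 1 TPM in all. Camp and Ngp reached 2.03 and 3.81 TPM at most, so the sum of the list follows S100a8. That sum was 260 to 585 TPM in chronic hypoxia against 898 to 1910 in the other groups. The 5 resident peritoneal macrophage markers summed to 5.56 to 12.5 TPM in all, mostly Icam2 (4.77 to 11 TPM). No other marker of that list reached 1 TPM, and Gata6 and Alox15 were each at 0 in 8 libraries. The part of these markers in the member differences was not tested, and fewer cells of a type and less RNA per cell cannot be told apart in bulk samples.

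**Figure D3:**
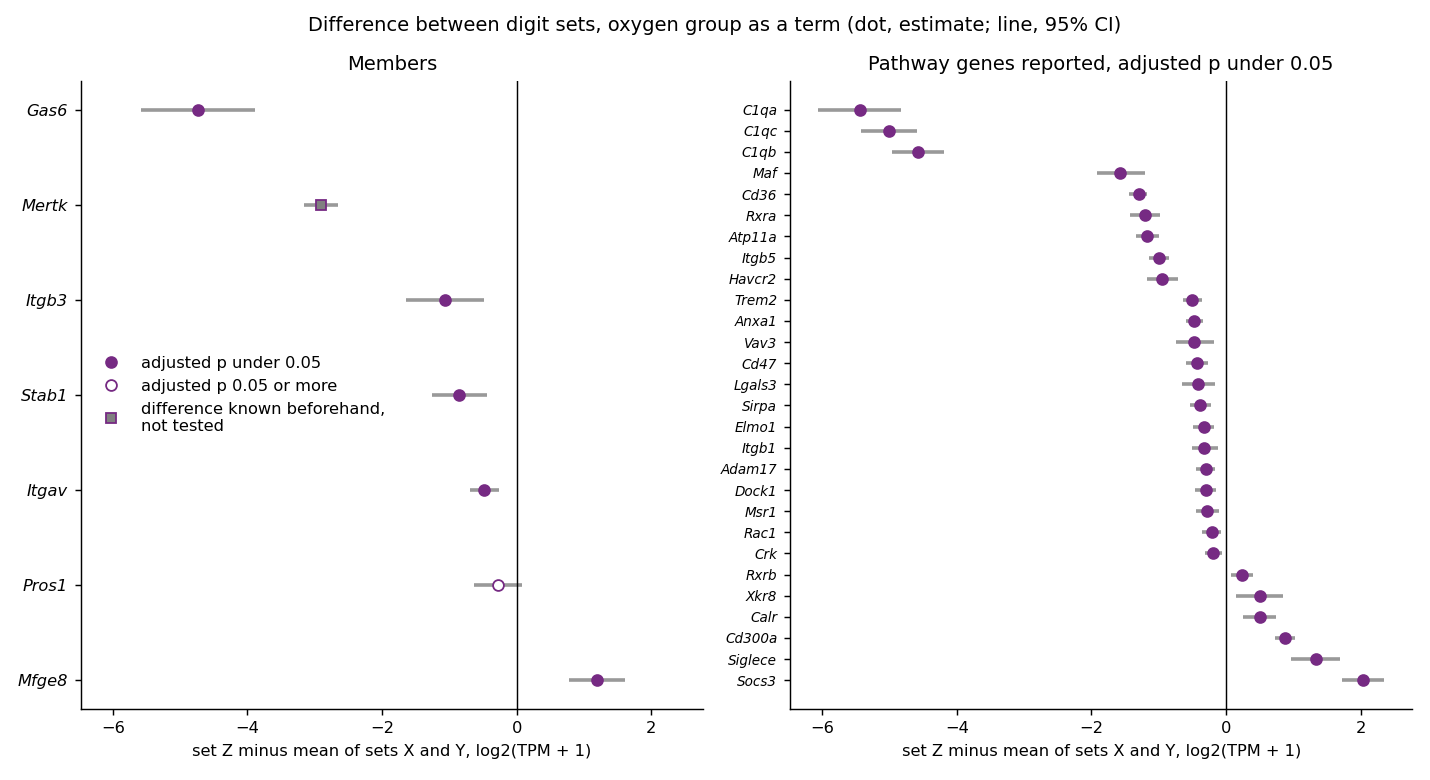
Log2(TPM + 1) of set Z minus the mean of sets X and Y with oxygen group as a term (points, estimates; lines, 95% confidence intervals), for the tested members and for the other pathway genes reported here that have an adjusted p under 0.05. Gas6 (-4.73) and the C1q chains lie farthest to the left, and Mfge8 (1.19) and Socs3 (2.04) farthest to the right. Mertk is drawn as a square because its difference was known beforehand, so its test result is not given.

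The genes named here, whose profiles over the 9 libraries were among those most like that of Mertk, were all low in set Z, which the choice by likeness to Mertk fixes. The likeness was the root mean square of the difference of centred log2(TPM + 1) values over 7106 genes with a mean of at least 10 TPM. Among the nearest were the kinase gene Map4k4 (0.391), the membrane protein gene Ms4a7 (0.392), the creatine kinase gene Ckb (0.424) and the sodium/proton exchanger gene Slc9a9 (0.512). Ms4a7 was 361 to 400 TPM in sets X and Y and 53.9 to 94.5 TPM in set Z, and Map4k4 was 13 to 19.4 and 0.0261 to 0.518 TPM. This is a description over libraries that fall into separate sets, so no correlation was computed.

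The counts of the lists that follow stand beside those of all genes tested. With the block 15.1% of all genes rose and 3.3% fell in chronic hypoxia against standard oxygen. Against acute hypoxia 12.1% rose and 3.42% fell. Without a block 2.69% and 0.695% were called. The medians over all genes were 0.011 in the acute comparison and 0.162 and 0.143 in the chronic ones. Among 18 other phosphatidylserine and engulfment receptors, 12 were tested. In chronic hypoxia against standard oxygen 1 rose without a block, Lrp1, a large endocytic receptor (261, 222 and 303 TPM to 459, 494 and 411 TPM in sets X, Y and Z, log2 0.8, limma adjusted p = 0.0444). With the block 5 rose and 1 fell. They included the beta-1 integrin gene Itgb1 (0.73, limma adjusted p = 0.0155) and the lipid-binding receptor Cd300lf (1.21, limma adjusted p = 0.0346). Cd36 fell, from 4210, 4160 and 1640 TPM to 2760, 2530 and 1060 TPM (limma adjusted p = 0.0131). After rescaling 1 rose, Itgb1, and 1 fell, Cd36. Cd300lf was the only gene of all the lists called in acute hypoxia, with the block (69.8, 70.4 and 131 TPM to 126, 125 and 232 TPM, log2 0.83, limma adjusted p = 0.0144). In chronic against acute hypoxia none was called without a block, and 4 rose and 3 fell with it. Those that fell were Havcr2 (TIM-3, -0.97, limma adjusted p = 0.0151), Cd36 (-0.76, 0.0122) and Cd300a, an inhibitory receptor (-0.34, 0.0489), and all 3 still fell after rescaling, while of the 4 that rose only Itgb1 (0.55, limma adjusted p = 0.0393) was still called. Itgam (0.47) and Itgb5 (0.42) are uncertain because 71.7% and 7.45% of their 75-base stretches also occur in other listed genes. The median of this list was 0.1, 0.26 and 0.19 in the acute comparison and the 2 chronic ones.

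Of 12 other bridging molecules and ligands 8 were tested, and none was called without a block. With the block C1qa and the chaperone gene Calr rose in chronic hypoxia against standard oxygen. C1qa went from 66.8, 71.9 and 1.44 TPM to 281, 443 and 3.41 TPM (log2 1.84, limma adjusted p = 0.0287), higher within each set. Calr changed by 0.67 (limma adjusted p = 0.0408) and was lost after rescaling (0.49, limma adjusted p = 0.0952). Against acute hypoxia 4 rose with the block, among them C1qa (1.99, limma adjusted p = 0.0157), C1qc (1.06, 0.0182) and C1qb (0.92, 0.0298), of which C1qb was lost after rescaling (0.77, limma adjusted p = 0.0546). The medians were -0.03, 0.52 and 0.42.

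The engulfment signalling list, with ELMO, DOCK and Rac genes that drive the actin cup, held 14 genes, of which 13 were tested in the acute comparison and 12 in the chronic ones. None was called without a block. With it 3 rose in chronic hypoxia against standard oxygen: Rac1 (0.64, limma adjusted p = 0.0149), Dock2 (0.48, 0.0244) and Elmo2 (0.46, 0.0251), of which Rac1 remained after rescaling (0.46, limma adjusted p = 0.0299). Against acute hypoxia Rac1 (0.51), Elmo1 (0.45) and Dock2 (0.43) rose, and again Rac1 alone after rescaling. The medians were 0.05, 0.26 and 0.14.

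The lipid-sensing nuclear receptor genes Pparg and Nr1h3 fell in chronic hypoxia. Of 15 tested regulators and shedding genes, 1 rose and 2 fell against standard oxygen without a block, and 2 rose and 3 fell with it. Pparg, which encodes PPAR-gamma, fell from 34.5, 33.9 and 33.8 TPM to 16.9, 12.2 and 13.6 TPM (log2 -1.22, limma adjusted p = 0.0146). In acute hypoxia it was 12.8, 12.5 and 18.7 TPM, below every standard oxygen library, without passing (-1.18, limma adjusted p = 0.0874, and 0.0514 with the block). Nr1h3, the oxysterol receptor LXR-alpha, fell from 15.4, 18 and 21.1 TPM to 8.39, 8.14 and 9.5 TPM (-0.98, limma adjusted p = 0.0307), and it fell against acute hypoxia as well (-1.08, limma adjusted p = 0.0289). Its partner Rxra fell with the block (-0.57, limma adjusted p = 0.0226). Nr3c1, the glucocorticoid receptor, rose from 15.2, 16.7 and 17.3 TPM to 30.9, 36.1 and 29 TPM (0.92, limma adjusted p = 0.0254). Adam17, the protease that sheds MERTK, rose with the block (0.51, limma adjusted p = 0.0216) and not after rescaling (0.33, limma adjusted p = 0.0585). Against acute hypoxia 4 rose and 2 fell with the block, among them Maf (0.83, limma adjusted p = 0.00969) and Socs3 (-0.81, 0.0246). After rescaling 2 rose and 2 fell, with Nr3c1 among those lost (0.4, limma adjusted p = 0.0901). The medians were 0.1, 0.18 and -0.03.

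The list of 9 genes of lipid exposure and of restraint of uptake was tested in full. Pecam1, an adhesion molecule that can restrain uptake, rose from 10.8, 12.2 and 21.9 TPM in standard oxygen to 40.6, 42.7 and 39.2 TPM in chronic hypoxia (log2 1.45, limma adjusted p = 0.0406), and was the only one of the list called without a block. With the block the flippase subunit gene Tmem30a (0.37, limma adjusted p = 0.0335) and Cd47, a signal against uptake (0.34, 0.0352), rose as well, and both were lost after rescaling (limma adjusted p = 0.147 and 0.18). Sirpa, the receptor of CD47, fell after rescaling (-0.34, limma adjusted p = 0.0484), so that 1 rose and 1 fell. Against acute hypoxia 1 rose with the block, Pecam1 (1.14). The medians were 0.02, 0.34 and 0.16. No list was given a test of its own, and nothing is called particular to any of them.

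**Figure D4:**
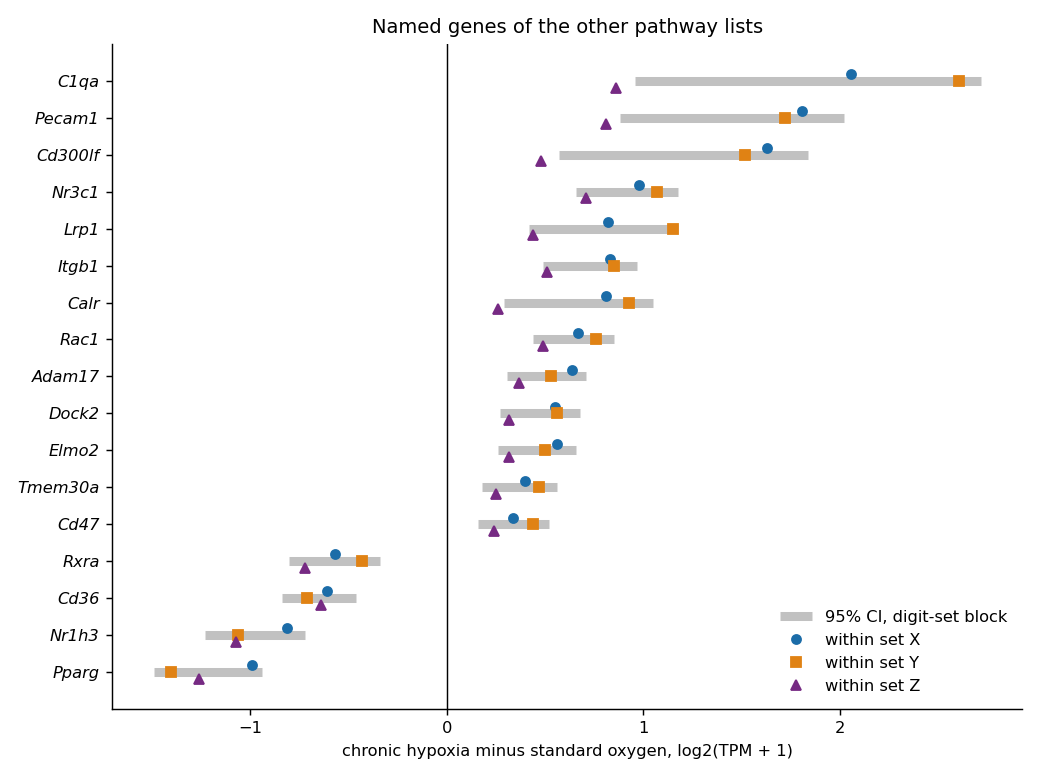
Log2(TPM + 1) difference of chronic hypoxia minus standard oxygen for the named genes of the pathway lists, within sets X, Y and Z (points), with the 95% confidence interval of the fit with the digit set as a block (bars). The 3 points of each gene lie on 1 side of 0, with C1qa, Pecam1 and Cd300lf farthest to the right and Pparg and Nr1h3 farthest to the left.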

How the data were processed

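RNA was measured in 9 libraries, 3 per oxygen group. Per the labels' protocols, mRNA libraries were made with Illumina TruSeq chemistry and read as 75-base paired ends. The authors deposited TPM per gene, and per the submitters' processing notes FastQC, STAR and featureCounts were used with GRCm38. How TPM was computed is not given in the sources used here, and depth is unknown. Symbols were matched for 34582 of 34866 genes. Positions came from GENCODE M21 and promoters from RefSeq.

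Each comparison was fitted on its 6 libraries with limma 3.58.1 (R 4.3.3, intensity trend, two-sided) on log2(TPM + 1), over genes with a mean of at least 1 TPM, with Benjamini-Hochberg adjustment over all of them and a threshold of 0.05. Log2 differences on this scale understate changes of low genes. The fit was also run on simulated data, with changes put only into well-expressed genes. That check does not cover low genes such as Pros1 and Itgb3. The labels call the replicates biological but name no animals or cultures, so p-values measure only the spread between these samples.

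Set X was on replicate 1 of each group, set Y on standard oxygen replicate 3 and replicate 2 of both hypoxia groups, and set Z on standard oxygen replicate 2 and replicate 3 of both. Deviations from the group means correlated between libraries of 1 set in every pair (0.378 to 0.633 over 11065 genes), so the set was used as a replicate block beside the unblocked fit. The shared source is inferred from the description digits. All members were named, with the called genes of each pathway list (up to 3 each way) and the 5 profiles nearest Mertk, except for items that are not reported here. Members, lists and tests were chosen with earlier results of these data known. Alternatives were other pseudocounts (0.1 and 5), filters, scalings, blocks and omitted libraries. Fits without a set combined with the block or with rescaling were chosen after seeing the data.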

Additional observations from a re-analysis of the deposited data

Results flagged for a closer look

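Sets X and Y moved one way and set Z the other for 9 differences of 5 of the 7 tested members. The other differences of Mertk, Itgb3 and Stab1, and all those of Pros1 and Itgav, did not split in this way. The share of all tested genes with the same split is not given here. The count of 9 therefore stands without a background and marks nothing particular to the members. Some of the 9 are small, as for Mfge8 in acute hypoxia against standard oxygen. The difference between sets was not tested, since set Z has 1 pair per comparison. All values are log2(TPM + 1) differences. Gas6 in chronic hypoxia against standard oxygen was 1.19 and 1.61 in sets X and Y and -0.14 in set Z. Against acute hypoxia Gas6 was 1.42 and 2.17, and -0.35 in set Z. For acute hypoxia against standard oxygen Gas6 was -0.23 and -0.56, and 0.21 in set Z, where every Gas6 value is below 1 TPM. Mfge8 was 0.44 and 0.36 in chronic hypoxia against standard oxygen and -0.46 in set Z. Against acute hypoxia Mfge8 was 0.59 and 0.41, and -0.52 in set Z, and for acute hypoxia against standard oxygen -0.15 and -0.05, and 0.06 in set Z. Mertk in chronic hypoxia against standard oxygen was 0.16 and 0.26, and -0.28 in set Z. In acute hypoxia against standard oxygen Itgb3 was -0.98 and -0.77, and 0.47 in set Z, while Stab1 was 0.41 and 0.4, and -0.27 in set Z.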

How the results depend on the processing

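The members called moved with the block and with set Z. Against 0 called in acute hypoxia versus standard oxygen, 1 (Itgav) was called without set Z, with or without the digit-set block or rescaling. For chronic hypoxia versus standard oxygen, against 1 called, the count was 2 with the digit-set replicate block alone, with rescaling or with all 9 libraries, 0 with the title-number replicate block, with no filter or with a mean of at least 5 TPM (which drops Pros1), 5 without set Z with or without the block (4 with rescaling), and 0 in the blocked fit without set X or without set Y. For chronic versus acute hypoxia, against 0 called, it was 1 with all 9 libraries in 1 fit. It was 3 with the digit-set block, alone, with rescaling or with all 9 libraries. The title-number block pairs these libraries as the digits do, so it is the same fit here. The count was 5 without set Z (4 with rescaling) and 6 with the block and without set Z. With the block and without set Y it was 2. Over all genes the digit-set block gave 2039 of 11067 and 1724 of 11087 calls in the chronic comparisons, and 1267 and 1086 with rescaling. The title-number block gave 1 call against standard oxygen. Without set Z the genes called were 2300 of 10924 and 1788 of 10952. They were 1894 and 1317 with rescaling, 3828 and 2751 with the block, and 18 and 513 in the blocked fit without set Y. For the fits with all 9 libraries, without set X, with no filter or with a mean of at least 5 TPM, the share of all genes is not given here. Their member counts therefore stand without a background. Leaving out 1 library in turn gave 0 to 0, 0 to 2 and 0 to 0 members called. The cause of these changes was not tested. The title numbers gave correlations of -0.515 to 0.633 (mean 0.0942) and the pairing by digits a mean of 0.475. The blocks changed no other call of a member.

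Some directions reversed. Mertk in chronic hypoxia versus standard oxygen became -0.116 with rescaling, blocked or not, -0.12 with quantile normalization, and -0.011 and -0.063 in the blocked fits without set X and set Y. Mfge8 became -0.065, -0.068, -0.052 and -0.011 in the same order. In the blocked fit without set X, Mfge8 was 0.005 in acute hypoxia versus standard oxygen and -0.057 in chronic versus acute hypoxia. Leaving out 1 library, differences of acute hypoxia from standard oxygen spanned -1.181 to 0.674 for Mertk, -1.665 to 1.081 for Gas6, -0.181 to 0.028 for Pros1, -0.576 to 0.427 for Mfge8 and -0.004 to 0.496 for Stab1. Those of chronic hypoxia from standard oxygen spanned -0.844 to 1.099 for Mertk, -0.585 to 2.875 for Gas6, -0.143 to 0.587 for Mfge8 and -0.313 to 0.021 for Itgav. Those from acute hypoxia spanned -0.629 to 1.391 for Mertk, -0.192 to 3.067 for Gas6, -0.113 to 0.688 for Mfge8 and -0.513 to 0.024 for Itgb3. Pros1 in chronic hypoxia versus standard oxygen was -2.621 with a pseudocount of 0.1 and -0.659 with 5. Over all genes, and outside the fits that left out a single library, calls ran from 0 to 358 in the acute comparison, from 1 to 3828 and from 7 to 2751 in the chronic ones, against 3, 298 and 77 as reported.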

Other observations

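Some genes outside the members had values that differed between the sets, and were singled out after those values were seen. Thbs1, for thrombospondin-1, a bridge between dying cells and CD36, was 23, 20.9 and 13.8 TPM under standard oxygen, 53.3, 51.9 and 11.8 TPM in acute hypoxia and 21, 17.6 and 39.6 TPM in chronic hypoxia in sets X, Y and Z. It was highest in acute hypoxia in sets X and Y and in chronic hypoxia in set Z. Mrc1, the mannose receptor, was 2.78, 2.39 and 0.255 TPM under standard oxygen and 27.2, 39 and 0.697 TPM in chronic hypoxia. Ly6c2, a monocyte marker, was 243 TPM in the standard oxygen library of set Z and 969 TPM in its chronic library, beside 54.6 and 45.2 TPM and 78.8 and 60.3 TPM in sets X and Y.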
